A study of Mus musculus with 4 samples.

Results

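The 10 genes described here are core components of antigen presentation, listed by function. The 6 class I genes are the heavy chains H2-K1 and H2-D1, their shared light chain B2m, the peptide transporter subunits Tap1 and Tap2, and Tapbp. The 4 class II genes are H2-Aa, H2-Ab1, H2-Eb1 and the invariant chain Cd74. Every one of them was present in each of 4 single-cell count matrices, which list 32285 genes. The matrices hold epidermis of mouse back skin from adult mice of 2 to 17 months, stated to be of both sexes in equal numbers, with 1 library per group. Control mice were DNp63fl/fl, in which the DNp63 isoforms of Trp63 can be deleted, and carried no Cre. Mice labelled experimental, called ablated here, were DNp63fl/fl;K14-CreT2, with a Cre under the keratin 14 promoter of basal keratinocytes. Mice of both genotypes received tamoxifen at 200 mg/kg once a day for 5 days by gavage, and cells were taken 1 day or 1 week after ablation. How many mice made up a library is not given in the sources used here. Skin was digested in 0.25% trypsin either overnight at 4 °C or for 2 hours at 37 °C, and the labels do not say which was used for which library. Because the 1-day libraries came from a 3′ kit and the 1-week libraries from a 5′ kit, levels were compared within a time point and not between them.

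Class I molecules are carried by nearly all nucleated cells and show peptides of cytosolic proteins to CD8 T cells. The proteasome cuts those proteins, the Tap1-Tap2 transporter moves the peptides into the endoplasmic reticulum, and tapasin, the product of Tapbp, holds empty class I molecules beside the transporter. Class II molecules are carried mainly by professional antigen-presenting cells and show peptides taken up from outside to CD4 T cells. Cd74 occupies their groove until endosomal proteases and H2-DM exchange it for peptide. In epidermis the resident class II-positive cell is the Langerhans cell, marked by Cd207 (langerin), and resting keratinocytes carry class I with little class II. Interferon gamma induces both sets, class I through Nlrc5 and class II through Ciita. Neither co-activator binds DNA itself. Both are recruited to a promoter module whose X box binds RFX and CREB family factors and whose Y box is the CCAAT sequence bound by NF-Y.

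Promoter sequences of 4 members are shown so that the letters of this module can be read on the class I and the class II side. They run 5′ to 3′ on the strand of the gene, from the RefSeq table on GRCm38.p6, and end at the base before the start, except that B2m ends 2 bases before it. The capitals mark GGGGA directly followed by TTCCC (an NF-kB site, also called enhancer A), GAAA, any 2 bases and GAAA (an interferon-stimulated response element), TGACG (the CREB core of the X box) and CCAAT, which reads ATTGG on the other strand.
H2-K1: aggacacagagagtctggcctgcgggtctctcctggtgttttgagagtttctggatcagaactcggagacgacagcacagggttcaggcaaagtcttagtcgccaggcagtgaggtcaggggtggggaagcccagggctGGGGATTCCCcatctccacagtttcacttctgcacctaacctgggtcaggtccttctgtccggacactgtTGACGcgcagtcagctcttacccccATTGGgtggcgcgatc
B2m: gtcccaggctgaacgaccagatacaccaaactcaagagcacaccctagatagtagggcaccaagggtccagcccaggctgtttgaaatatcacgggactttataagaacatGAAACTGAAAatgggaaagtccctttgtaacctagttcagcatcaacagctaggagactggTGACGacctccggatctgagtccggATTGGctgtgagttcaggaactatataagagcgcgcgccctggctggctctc
H2-Aa: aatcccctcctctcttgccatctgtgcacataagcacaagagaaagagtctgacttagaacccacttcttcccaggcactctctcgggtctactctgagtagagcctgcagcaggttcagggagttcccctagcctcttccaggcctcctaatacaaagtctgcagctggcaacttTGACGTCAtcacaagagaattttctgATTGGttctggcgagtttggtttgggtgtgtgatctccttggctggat
H2-Eb1: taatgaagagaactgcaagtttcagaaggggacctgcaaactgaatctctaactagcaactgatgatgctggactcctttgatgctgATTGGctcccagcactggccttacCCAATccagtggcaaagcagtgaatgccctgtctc
The H2-K1 stretch is chr17:34000348-34000597 on the minus strand, the B2m stretch is chr2:122147437-122147685 on the plus strand, and the H2-Aa stretch is chr17:34287824-34288073 on the minus strand. The H2-Eb1 stretch is chr17:34305721-34305866 on the plus strand, and the B2m and H2-Eb1 stretches were trimmed to the bases outside annotated exons. In H2-K1 the NF-kB match begins 111 bases before the start, TGACG 41 bases and ATTGG 16 bases before it. B2m carries the interferon element 139 bases, TGACG 78 bases and ATTGG 53 bases before its start. H2-Aa has TGACG 74 bases and ATTGG 48 bases before its start, the former reading as a palindrome on both strands. The 2 CCAAT matches of H2-Eb1 lie 59 and 35 bases before its start. From the first letter of TGACG to the first letter of ATTGG the distance was 25 bases in H2-K1, B2m and H2-D1 and 26 bases in H2-Aa. That spacing of 25 or 26 bases, singled out after it was seen in the members, occurred in 27 of 32851 promoter windows of 250 bases (0.0822%). On either strand the interferon element was found in 2.98% of those windows, the NF-kB site in 0.0852%, TGACG in 17.8% and CCAAT in 33.8%. A window was matched by symbol for 7 of the 10 members, and a letter match is a description and not a bound site. All 10 gene IDs in the matrices matched the GENCODE annotation of GRCm38, where 8 members lie on chromosome 17 and B2m on chromosome 2. The class I genes span 17:33996017-34000347 (H2-K1, minus strand), 17:35262730-35267499 (H2-D1), 2:122147686-122153083 (B2m), 17:34187553-34197225 (Tap1), 17:34203527-34216321 (Tap2) and 17:33915899-33929292 (Tapbp). The class II genes on chromosome 17 span 17:34282744-34287823 (H2-Aa, minus strand), 17:34257689-34269419 (H2-Ab1) and 17:34305867-34316674 (H2-Eb1).

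The libraries held between 68191870 and 179736563 gene UMIs (molecules counted once each), and 15639 to 23741 cells per library were kept after filtering. Cells were clustered within a time point and named from marker genes. Keratinocytes, meaning basal-like, suprabasal-like, granular-like, hair follicle-like, sebaceous-like and cycling clusters together, comprised 21095 control cells and 16229 ablated cells at 1 day, then 5871 and 2844 at 1 week. All 13 keratinocyte markers were detected in them in every library, but also in Langerhans-like and T cell-like cells, so this is no check on the label. Langerhans-like cells numbered 391 and 466, then 115 and 66. T cell-like cells numbered 757 and 397, then 224 and 113. Clusters led by Krt8 were almost confined to the ablated libraries (2 control against 3951 ablated cells, then 0 against 604) and were kept apart. Among clusters in which no other lineage scored high enough to be named, those whose summed profile lay close to that of the shallowest barcodes of their library were kept apart too. They are called pool-like here. At 1 week this also covers clusters mostly made of barcodes under 3000 UMIs that met an abundance rule. That rule asks whether a barcode's UMIs lie in genes abundant in the shallowest barcodes, and does not measure likeness of profile. Named classes also hold shallow barcodes that met it. These made up 53% to 73.9% of 4 hair follicle-like clusters, 51.5% of Langerhans-like and 68.8% of alpha-beta T cell-like cells at 1 day, and 77.1% of macrophage-like cells at 1 week. Of the 1-day Langerhans-like cells, 385 of 391 control and 463 of 466 ablated ones held at least 10 class II UMIs. At 1 week the pool-like clusters include a Cd207-led one with more control barcodes than the Langerhans-like class. Pool-like clusters held 158 control and 2359 ablated barcodes at 1 day, then 12891 and 11071 at 1 week. Most of these 1-week barcodes were shallow, although their clusters' median depths ran from 658 to 17780 UMIs. Trp63, the targeted gene, was 403 and 124 per 1000000 UMIs in 1-day control and ablated keratinocytes, and 448 and 189 in the 1-week ones. Counts per gene do not separate the DNp63 isoforms, so this compares the whole gene. Xist, which only female cells express, stood at 0.0340 and 0.0419 CPM in the 1-day control and ablated libraries, against 287 and 141 CPM at 1 week, so the 1-day libraries go against the stated mix of sexes. Barcodes shared by the 2 libraries of a pair numbered 299 at 1 day and 661 at 1 week.

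Levels are given as CPM, the UMIs of a gene per 1000000 gene UMIs summed over the cells of a class, and a difference is the log2 ratio of ablated over control. The interval given with a ratio, a level or a share of cells is its exact 95% interval and covers counting error only. With 1 library per group no test across samples was possible, and mouse-to-mouse spread is unknown. A gene was counted as higher or lower where the ratio reached 1.5-fold, the interval lay on 1 side of 0 and both libraries together held at least 50 UMIs. H2-K1 and H2-D1 share near-identical stretches with each other and with the H2-Q genes, and how shared reads were assigned is not given in the sources used here, so the division of class I UMIs among them is uncertain.

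Class I transcripts were found in every class of cells. In the 1-day control library the summed class I level was lowest in fibroblast-like cells at 2156 CPM, then 3353 CPM in suprabasal-like keratinocytes. The next 3 classes, pool-like barcodes, hair follicle-like and melanocyte-like cells at 3557, 3585 and 3614 CPM, had overlapping intervals. Sebaceous-like cells (3978 CPM) lay below basal-like cells (4099 CPM), and the interval of Langerhans-like cells (4074 CPM) overlapped both. Above them came granular-like cells (4919 CPM) and gamma-delta T cell-like cells (4970.2 CPM), which could not be told apart, then cycling keratinocytes (5195 CPM) and alpha-beta T cell-like cells (6180.4 CPM). The 23 endothelial-like cells, at 4475 CPM (4012 to 4976), overlapped several of these classes and have no place in the order. In the 1-week control library alpha-beta T cell-like cells again stood highest at 9606 CPM and cycling keratinocytes next at 8364 CPM, while suprabasal-like cells at 4202 CPM were lowest among keratinocytes.

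Class II transcripts were concentrated in Langerhans-like cells, where the 4 members together made up 85040 CPM in control cells and 70814 CPM in ablated ones at 1 day, then 90602 and 77591 CPM at 1 week. Macrophage-like cells, resolved at 1 week alone, followed with 36977 and 15518 CPM. Pool-like barcodes carried between 1065 and 1401 CPM in the 4 libraries. Within the 1-day control library suprabasal-like and granular-like cells were lowest, at 66.3 and 66.7 CPM, with overlapping intervals. In cells thinned to 2000 UMIs, with shallower cells left out, Cd74 was seen in 99.3% and 100% of Langerhans-like cells at 1 day and in 100% of them in both 1-week libraries. In keratinocytes it was seen in 7.17% of control and 8.33% of ablated cells at 1 day, and in 4.43% (3.90 to 5.01) and 6.75% (5.79 to 7.81) at 1 week. The thinned keratinocytes left out 2443, 2479, 475 and 369 cells, and the Langerhans-like cells 107, 187, 16 and 1. Without thinning the keratinocyte shares were 14.3% and 15.1%, then 10.3% and 12.4%, at median depths of 4356, 3642, 6665 and 5725.5 UMIs. T cell-like cells, which in mice make little class II, gave 17.5% of 97 cells and 9.89% of 273 at 1 day and 19.1% of 110 and 27.5% of 51 at 1 week after thinning, with 660, 124, 114 and 62 cells left out (13.5%, 17.9%, 15.6% and 17.7% unthinned), and melanocyte-like cells gave 17.2% of 29 cells, 4.55% of 44 cells, 0 of 12 cells (0 to 26.5%) and 12.5% of 16 cells. The median depths of T cell-like cells were 1242, 2873, 1975 and 1875 UMIs, and those of melanocyte-like cells 936.5, 2934, 1510.5 and 2063 UMIs. After thinning, the share of keratinocytes with a Cd74 UMI was thus not above that of T cell-like cells in any library. It was above that of the few melanocyte-like cells in the 1-day ablated and 1-week control libraries. T cell-like cells also held Langerhans cell markers and a few class II-rich cells at both times, so they are no clean background. After thinning, 9.28% of them held a Cd207 UMI in the 1-day control library against 2.73% of keratinocytes, and 1.82% against 0.278% in the 1-week control library. The keratinocyte share is therefore not read here as expression, and its source was not tested.

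**Figure D1:**
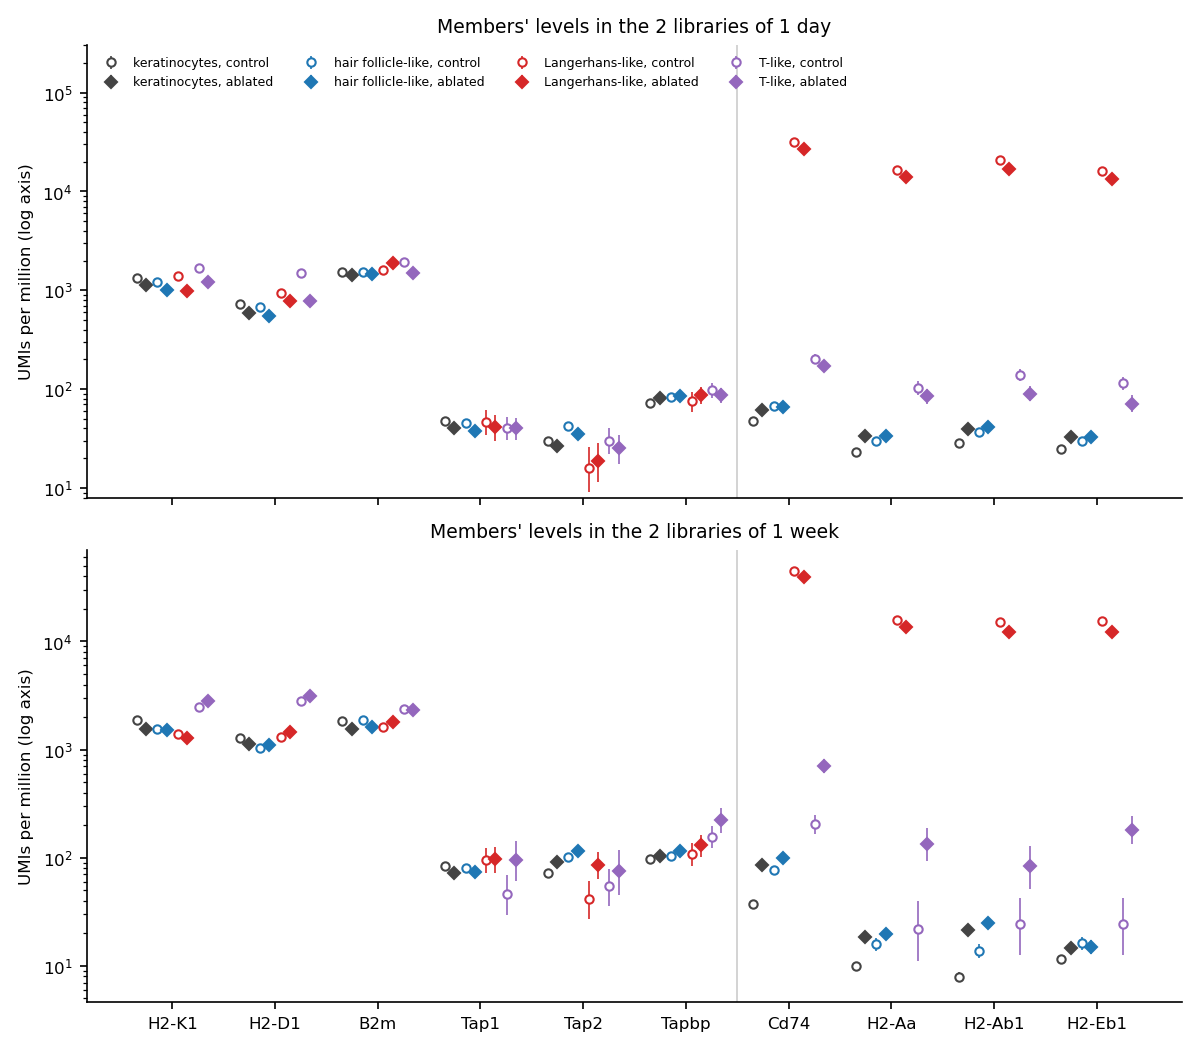
Level of each of the 10 members (CPM, log axis) in keratinocytes, hair follicle-like, Langerhans-like and T cell-like cells, with control and ablated libraries side by side at each time point and 95% counting intervals as bars. Class I members differ less among the 4 classes than class II members do. The class II members of Langerhans-like cells, such as Cd74 at 31629 CPM, lie far above those of keratinocytes at 47.1 CPM.

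At 1 day the class I chains were slightly lower in ablated keratinocytes. H2-K1 stood at 1340 CPM in control cells and 1122 CPM in ablated ones, a log2 ratio of -0.26 (-0.27 to -0.24). H2-D1 stood at 727 and 583 CPM, a ratio of -0.32 (-0.34 to -0.30). B2m, without which heavy chains do not reach the cell surface, was 1528 and 1418 CPM, a ratio of -0.11 (-0.12 to -0.10). These 3 genes carried most of the class I counts, and the sum of the 6 members was 3744 CPM against 3271 CPM, a ratio of -0.19 (-0.20 to -0.19). At 1 week the same sum was 5252 CPM in control cells and 4498 CPM in ablated ones, a ratio of -0.22 (-0.23 to -0.21). H2-K1 was 1862 and 1548 CPM (-0.27), H2-D1 1292 and 1136 CPM (-0.19) and B2m 1843 and 1548 CPM (-0.25). The differences were thus below 1.5-fold at either time, and the sign of the sum was negative under all 15 alternative settings at 1 day and all 12 at 1 week. By cluster, among those with at least 30 cells in both libraries, the sum was higher in the ablated cells of 4 of 16 at 1 day (median -0.09). At 1 week it was higher in 2 of 6 (median -0.14), so the pooled direction was not shared by all clusters.

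The transporter and tapasin did not move as a block. Tap1 was 47.4 and 40.2 CPM in control and ablated keratinocytes at 1 day (-0.24, interval -0.30 to -0.17) and 83.7 and 71.6 CPM at 1 week (-0.23, interval -0.31 to -0.14). Its partner Tap2 was 29.7 and 26.7 CPM at 1 day (-0.16, interval -0.24 to -0.07), then 72.2 and 91.2 CPM at 1 week (0.34, interval 0.26 to 0.42), so the subunits lay on the same side of 0 at 1 day and on opposite sides at 1 week. Tapbp was 71.7 and 81.0 CPM at 1 day (0.18, interval 0.13 to 0.22), then 98.3 and 104 CPM at 1 week (0.09, interval 0.02 to 0.16), the latter turning to -0.13 with TMM scaling. Of the 6 class I members 0 were counted as higher or lower in keratinocytes at 1 day, where 10.7% of 13328 genes tested were higher and 7.14% lower, and 0 at 1 week, where 23.3% of 12730 were higher and 8.54% lower. In all, 5 of the 6 ratios were below 0 at 1 day, with a median of -0.20 beside -0.01 for all genes tested, and 4 of 6 at 1 week, with a median of -0.21 beside 0.18. TMM scaling, which sets the median gene at 1 week to -0.04, took the class I sum there to -0.44.

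**Figure D2:**
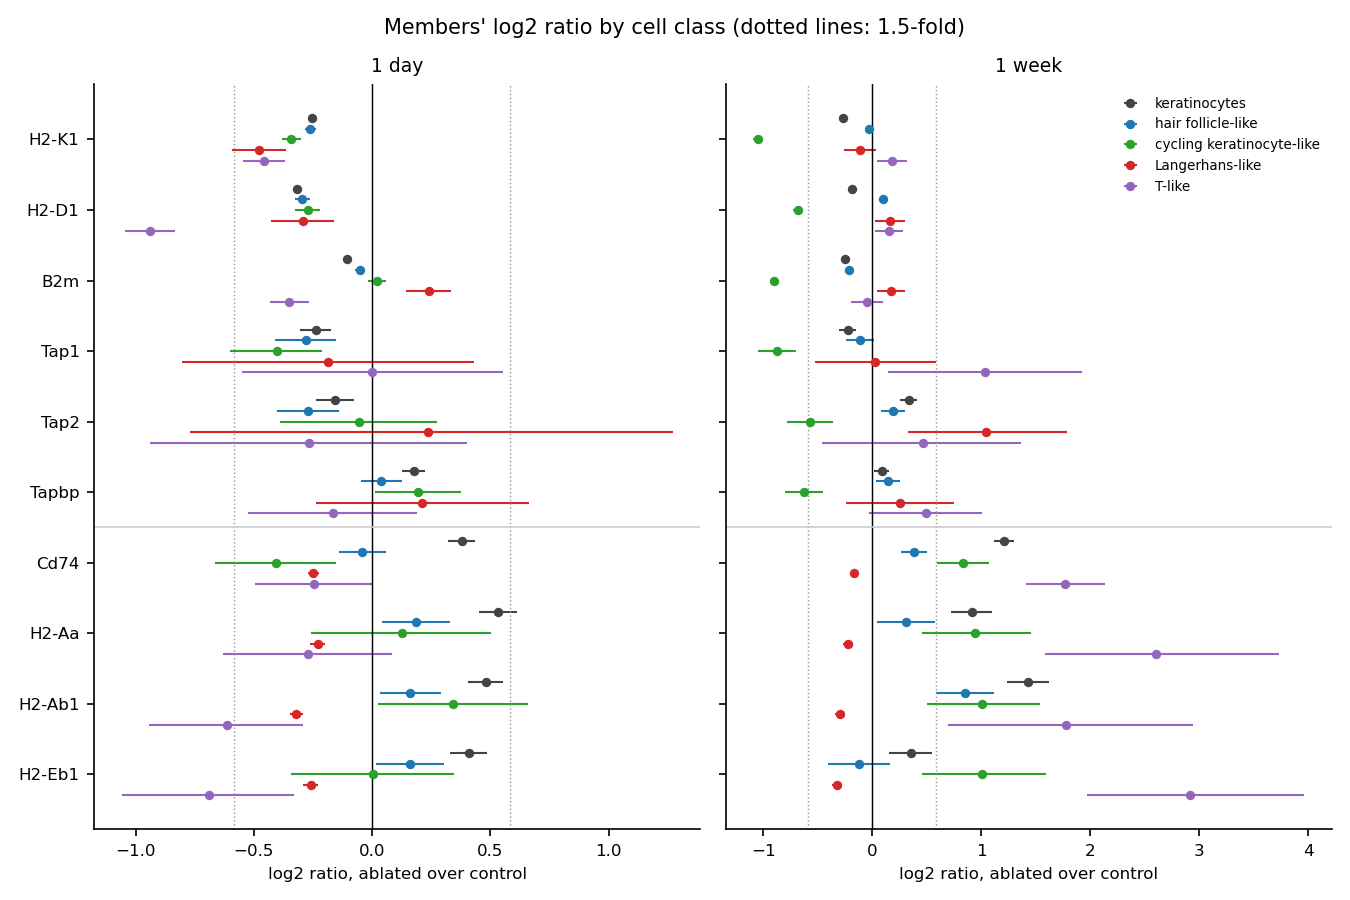
Log2 ratio of ablated over control for each member in all keratinocytes, hair follicle-like cells, cycling keratinocytes, Langerhans-like and T cell-like cells, with exact 95% counting intervals as bars and dotted lines at 1.5-fold. Class I ratios of all keratinocytes sit between -0.32 and 0.34, and class I ratios of cycling keratinocytes at 1 week lie lowest for H2-K1 at -1.05.

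Within compartments the class I level differed most in cycling keratinocytes at 1 week, which numbered 259 control and 360 ablated cells. There H2-K1 was 3062 CPM in control cells and 1480.3 CPM in ablated ones (-1.05, interval -1.09 to -1.01). H2-D1 was 2099 and 1309 CPM (-0.68, interval -0.73 to -0.63), and B2m 2781 and 1493 CPM (-0.90, interval -0.94 to -0.85). Tap1 at 170.0 and 92.8 CPM (-0.87) and Tapbp at 149 and 96.8 CPM (-0.63) were also lower, which made 5 of 6 members lower where 12.8% of all genes tested were. Tap2, at 103 and 69.4 CPM (-0.57), fell short of 1.5-fold. The summed class I level of 8364 CPM (8264 to 8466) in control cycling cells stood above that of every other control keratinocyte compartment, whereas the ablated value of 4542 CPM (4489 to 4595) overlapped hair follicle-like cells at 4562 CPM (4526 to 4598). At 1 day the same compartment, with 872 and 948 cells, had H2-K1 at 1938 and 1529 CPM and H2-D1 at 1091 and 904 CPM, and 0 of 6 class I members passed where 13.6% of genes did in either direction.

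The hair follicle-like class was well filled in all 4 libraries (8586 and 5763 cells, then 2331 and 1841). In it H2-K1 was 1218 and 1017 CPM (-0.26) and H2-D1 676 and 551 CPM (-0.29) at 1 day, while B2m was 1520 and 1468 CPM. At 1 week H2-K1 was 1559 and 1532 CPM, H2-D1 1043 and 1115 CPM and B2m 1869.8 and 1610.4 CPM, and the class I sum of 4756 and 4562 CPM differed by -0.06 (-0.08 to -0.04). No class I member passed at either time (6.8% and 14.3% of genes in either direction). The small difference of the 1-week sum covers clusters that lay on opposite sides of 0. In the Lgr5-led cluster H2-K1 was 708 and 899.6 CPM and the class I sum was higher in ablated cells (0.25), whereas in the Cst6- and Krt79-led cluster H2-K1 was 1973 and 1723 CPM and B2m 2413 and 1824 CPM. Basal-like cells at 1 day (5459 and 938) had H2-K1 at 1473 and 1246 CPM and B2m at 1648 and 1784 CPM. Only 17 ablated cells were basal-like at 1 week, with H2-K1 at 2111 CPM beside 2195 CPM in 2069 control cells, and Tap2 at 62.8 and 116 CPM passed as higher (6.96% of genes).

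In suprabasal-like cells H2-K1 was 1239 and 1088 CPM at 1 day, then 1529.6 and 904 CPM at 1 week. At 1 day the libraries filled different suprabasal-like clusters. The Mt4- and Krt1-led cluster held 3882 control and 390 ablated cells and the Serpinb12-led cluster 1357 and 575, whereas a Sprr2d-led cluster held 3 and 3237 and a Neu2-led cluster 5 and 2622. Within the shared clusters H2-K1 was 1146 and 1326 CPM (Mt4- and Krt1-led), 1383 and 1367 CPM (Serpinb12-led) and 1168 and 872 CPM (a Cstdc5- and Krt6b-led cluster of 122 and 534 cells), so the lower value of the whole class was not shared by all of them. The 1-week ratio of -0.76, with B2m at 1376 and 902 CPM and Tap1 at 69.8 and 45.5 CPM, made 3 of 6 class I members lower where 19.5% of genes were. All 1112 control cells lay in an Mt4- and Krt10-led cluster that held 6 of the 147 ablated cells, and the others lay in an Aldh1a3-led (76) and a Prl2c3-led (65) cluster without control cells. Granular-like cells had Tap1 at 45.9 and 28.4 CPM and Tap2 at 35.4 and 21.4 CPM at 1 day, 2 members lower where 9.75% of genes were. At 1 week B2m, Tap1, Tap2 and Tapbp were lower in granular-like cells, where 42.4% of genes were. In sebaceous-like cells Tapbp at 53.7 and 98.8 CPM was higher at 1 week (15.9% of genes), from 30 control and 322 ablated cells, 280 of the latter in a cluster with no control cell. Across the 16 keratinocyte clusters with at least 30 cells in both 1-day libraries, H2-K1 was lower in the ablated cells of 13 and H2-D1 of 15, whereas B2m was higher in 11 and Tapbp in 12. Across the 6 such clusters at 1 week H2-K1 was lower in 4, H2-D1 in 3 and B2m in 5. The Krt8-led ablated cells, which had too few control counterparts for a ratio, carried 1205 CPM of H2-K1 and 1524 CPM of B2m at 1 day and 1199 and 987 CPM at 1 week.

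The 1-day matrices also hold antibody hashtags, whose meaning the labels do not give. Cells in which 1 of 3 hashtags exceeded the others at a 2-fold limit were taken as subsets inside each library. All 3 had UMIs in every barcode, and they led 20.6%, 20% and 18.3% of control and 11.4%, 12.1% and 11.1% of ablated cells, so most ablated cells fell in no subset. Hashtag-led subsets share a library and are not replicates. In keratinocytes led by hashtags 1, 2 and 3, H2-K1 was 1443, 1384 and 1451 CPM in control cells and 1259, 1138 and 1263 CPM in ablated ones, so every ablated subset lay below every control subset. All 6 values lay above those of all keratinocytes of their library (1340 and 1122 CPM), so the subsets are a selected part of the cells. H2-D1 behaved alike, at 769.9, 779 and 733 CPM against 618, 594 and 611 CPM. Tapbp lay the other way, at 68.7, 80.5 and 78.5 CPM against 82.1, 93.8 and 91.6 CPM. B2m overlapped, at 1619.6, 1602 and 1668 CPM against 1496, 1452 and 1656 CPM, as did Tap1, Tap2 and every class II member. Of 12361 genes compared in this way in keratinocytes, 18.4% had all ablated subsets below all control subsets and 17.4% had them above. In keratinocytes led by hashtag 2 the ratio of Tap2 turned to 0.05, while that of Tap1 was -0.06.

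**Figure D3:**
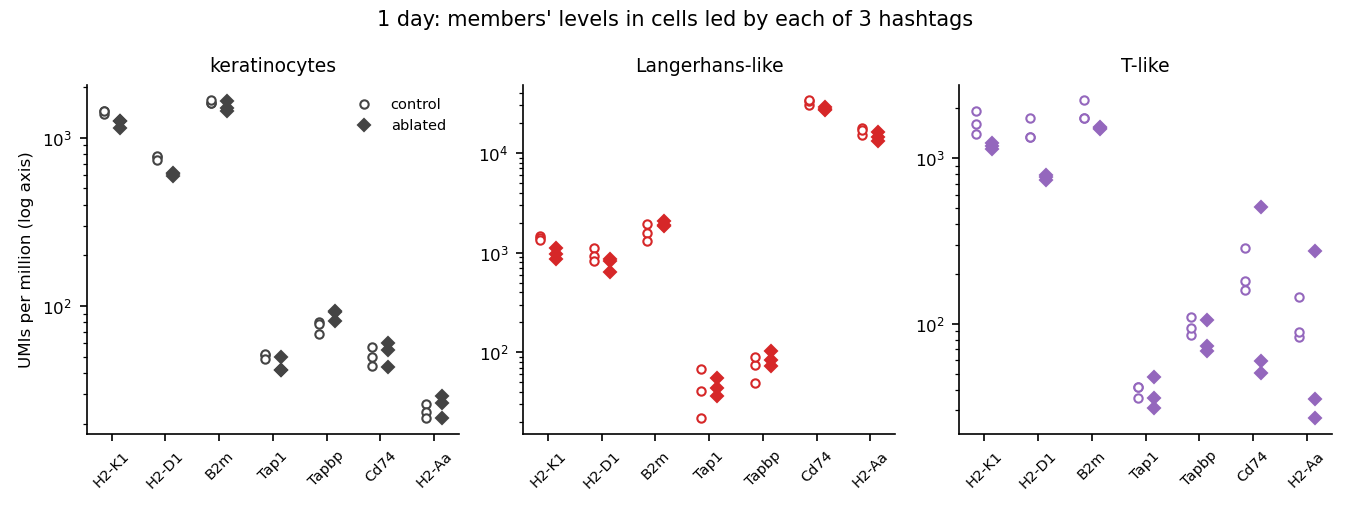
CPM of H2-K1, H2-D1, B2m, Tap1, Tapbp, Cd74 and H2-Aa in cells led by each of 3 hashtags of the 1-day libraries, for keratinocytes, Langerhans-like and T cell-like cells, with 1 point per hashtag and library. In keratinocytes the 3 ablated points for H2-K1 (1259, 1138 and 1263 CPM) lie below the 3 control points (1443, 1384 and 1451 CPM), while the points of Cd74 and H2-Aa overlap.

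Class II transcripts in keratinocytes were scarce, and the ablated libraries held more of them. At 1 day Cd74 was 47.1 and 61.3 CPM in control and ablated keratinocytes (0.38, interval 0.32 to 0.44), and H2-Aa was 23.1 and 33.5 CPM (0.53, interval 0.45 to 0.61). H2-Ab1, the beta chain that pairs with H2-Aa, was 28.4 and 39.6 CPM (0.48, interval 0.41 to 0.55), and H2-Eb1, the beta chain of the I-E molecule, 24.8 and 32.9 CPM (0.41, interval 0.33 to 0.49). None of the 4 reached 1.5-fold, where 10.7% of genes were higher, and their sum was 123 and 167 CPM (0.44, interval 0.40 to 0.47). The Langerhans cell gene Cd207 differed in the same direction in the same keratinocytes, at 13.6 and 21.6 CPM (0.67). The 15 Langerhans cell markers, all detected in both libraries, summed to 50.9 CPM in control and 70.9 CPM in ablated keratinocytes. Taken as a percentage of their level in Langerhans-like cells of the same library, 11 Langerhans cell genes outside the class II list had a median of 0.140% in control and 0.226% in ablated keratinocytes, and the class II members lay between 0.136% and 0.154% and between 0.230% and 0.245%. The part of Langerhans cell RNA in the keratinocyte values was not tested further than these ratios. Taking off class II UMIs at that median rate left 4.69 CPM in control cells and 7.63 CPM in ablated ones, remainders too small beside the spread of the 11 genes (0.106% to 0.463% in the control) to give a direction. Among cells led by hashtag 1 the class II sum was lower in the ablated library, at a ratio of -0.31.

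At 1 week 3 of the class II members passed the 1.5-fold rule in keratinocytes. Cd74 was 37.2 and 86.2 CPM in control and ablated keratinocytes (1.21, interval 1.12 to 1.31), H2-Aa 9.89 and 18.6 CPM (0.91, interval 0.72 to 1.10) and H2-Ab1 7.90 and 21.3 CPM (1.43, interval 1.23 to 1.63). H2-Eb1, at 11.5 and 14.7 CPM (0.35, interval 0.16 to 0.55), did not pass, which left 3 of 4 higher where 23.3% of all genes were. The sign of H2-Eb1 turned under 5 of 12 alternative settings. The makeup of the keratinocytes differed as well, with 2069 control and 17 ablated basal-like cells beside 2331 and 1841 hair follicle-like cells. Across the 6 clusters with at least 30 cells in both libraries the class II sum was higher in the ablated cells of 3 and lower in 3, with a median ratio of -0.44, so the pooled direction was not shared by all clusters. At 1 day it was higher in 13 of 16 such clusters, with a median of 0.31. The class II sum was 66.4 CPM (64.1 to 68.8) against 141 CPM (136 to 146), a ratio of 1.08 (1.01 to 1.15). It was 0.40 as the mean CPM per cell and 0.43 with Leiden resolution 2. Cd207 was 1.09 and 1.18 CPM, from 51 and 29 UMIs, and the summed Langerhans cell markers were 54.4 and 52.9 CPM, with 14 of 15 detected and Itgax at 0 in both libraries. Most of that sum was H2-M2, at 26.0 and 6.12 CPM, and Mfge8, at 14.0 and 34.7 CPM. These lay in opposite directions, so the even sum does not show a steady Langerhans cell content. The median over the 11 Langerhans cell genes, as a percentage of their own level in Langerhans-like cells, was 0.0778% and 0.231%. Cd74 stood at 0.0837% and 0.218% on that scale, H2-Aa at 0.0628% and 0.138%, H2-Ab1 at 0.0523% and 0.173%, H2-Eb1 at 0.0748% and 0.119%, and Cd207 at 0.0170% and 0.0331%. Cd74 also outnumbered H2-Aa more strongly in keratinocytes than in Langerhans-like cells at 1 week, with 3.76 and 4.63 Cd74 UMIs per H2-Aa UMI against 2.82 and 2.93, while at 1 day these were 2.04 and 1.83 against 1.92 and 1.90.

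The class II counts of 1-week keratinocytes lay in few cells. Cells with at least 10 class II UMIs, a limit chosen after the values were seen, numbered 54 of 5871 in the control (0.920%) and held 42.0% of the class II UMIs. In the ablated library they numbered 80 of 2844 (2.81%) and held 72.9%. Without them the class II sum of keratinocytes was 39.1 CPM in control cells and 40.3 CPM in ablated ones, a ratio of 0.04. They were left out by the count being measured, so this remainder is a description. Every one of the 80 ablated and 54 control cells had at least 3 UMIs of Krt5, Krt14 and Krt17 together, with medians of 185 and 107.5. So had 2683 of the other 2764 ablated and 5182 of the other 5817 control cells. All were taken from keratinocyte clusters, so this is no check on what the cells are, and the part of doublets was not tested. A Cd207 UMI was present in 2 of the 80 ablated and 5 of the 54 control cells, beside 14 of the other 2764 ablated and 41 of the other 5817 control cells. For Ptprc (CD45) these numbers were 2 and 2 beside 12 and 35, and for Lyz2 0 and 0 beside 6 and 9. Tyrobp, a signalling adaptor of myeloid and NK cells, had a UMI in 7 and 3 beside 15 and 36, and Cd3e in 3 and 2 beside 15 and 38. UMIs of Cd207, Ptprc, Tyrobp and Cd3e were thus found in a larger share of the class II-rich cells, which were also deeper, than of the others in both libraries. Ciita UMIs were present in 4 of the ablated and 0 of the control cells, and Cxcl9, an interferon gamma-induced chemokine, in 14 and 5. The class II-rich cells were deeper, with median UMI counts of 12136 in the ablated and 7779 in the control library. In cells thinned to 4000 UMIs, the share with at least 5 class II UMIs was 1.24% (0.933 to 1.61) in the control and 3.29% (2.52 to 4.21) in the ablated library, with 1424 and 1018 shallower cells left out. In hair follicle-like cells alone the shares were 2.63% (1.83 to 3.66) and 3.83% (2.84 to 5.03), and in cycling keratinocytes 1.63% (0.447 to 4.13) and 3.77% (1.90 to 6.64), so these intervals overlapped. That left out 1039 and 560 hair follicle-like and 14 and 68 cycling cells. In all keratinocytes at 1 day the thinned shares were 1.09% (0.908 to 1.29) and 1.26% (1.01 to 1.55), with 9026 and 9153 cells left out.

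**Figure D4:**
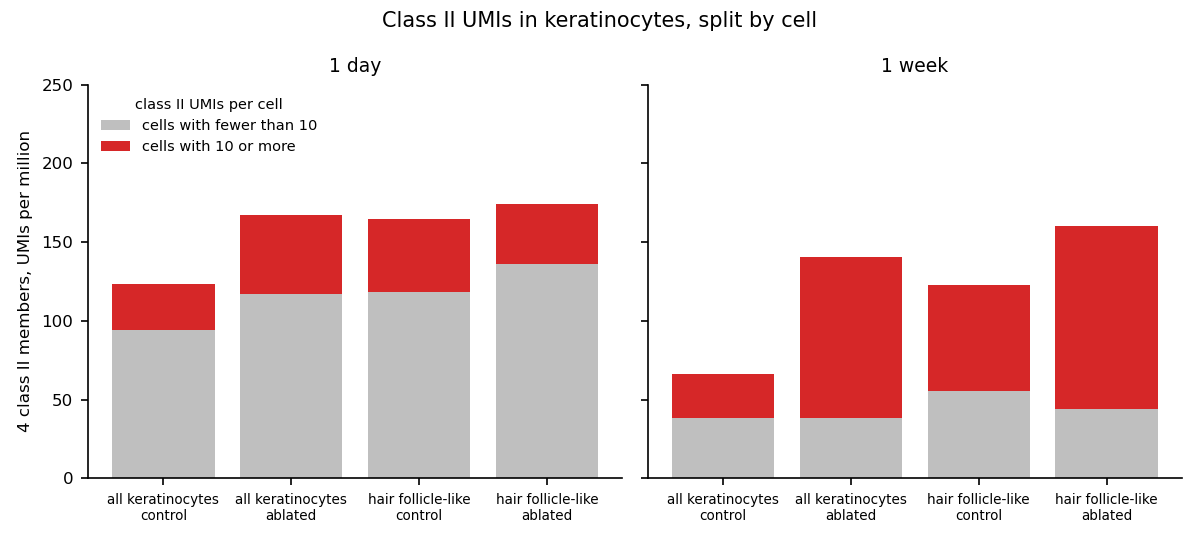
Summed class II level (CPM) of keratinocytes and of hair follicle-like cells, each bar divided into UMIs from cells with fewer than 10 and with at least 10 class II UMIs. At 1 week the part from cells with fewer than 10 is 39.1 CPM in control and 40.3 CPM in ablated keratinocytes, and the part from class II-rich cells differs.

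Pooled over clusters, the class II-rich keratinocytes also carried more class I transcript than the other keratinocytes of the same library. They were selected by their own class II count and by depth, so these values are a description. In the 1-week ablated library H2-K1 was 2034 CPM in the 80 cells and 1521 CPM in the others, and in the control 2427 and 1854 CPM. Tap2 was 167 and 87.0 CPM in the ablated and 178 and 70.7 CPM in the control library. Each of the 6 class I members was higher in the class II-rich cells in all 4 libraries, by as little as 90.3 against 83.6 CPM for Tap1 in the 1-week control library. Within single clusters this did not always hold. In control cycling keratinocytes at 1 week the 7 class II-rich cells had H2-K1 at 2829 against 3069 CPM and Tap1 at 111 against 172 CPM, and in the control Fst-led cluster H2-D1 was 1307 against 1340 CPM (28 and 878 cells). H2-DMa, a subunit of the class II peptide exchange factor, was 35.1 against 4.44 CPM in the 1-week ablated and 39.8 against 3.78 CPM in the 1-week control library. The 1-day counterparts differed in their Langerhans cell gene content, with Cd207 UMIs in 35 of 136 control and 67 of 114 ablated class II-rich cells.

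By compartment, the class II difference at 1 day was largest in differentiated keratinocytes. In suprabasal-like cells Cd74 was 19.9 and 51.9 CPM (1.39), H2-Aa 13.9 and 30.9 CPM (1.15), H2-Ab1 16.8 and 34.3 CPM (1.03) and H2-Eb1 15.8 and 29.5 CPM (0.91). All 4 were higher, where 15.6% of genes were. The ablated cells lay mostly in the Sprr2d-led and Neu2-led clusters, which almost no control cell entered and which had class II sums of 162 and 104 CPM. The 4 were higher as well in granular-like cells, with sums of 66.7 and 358 CPM (10.4% of genes). A granular-like cluster led by Lce genes held 15 control and 288 ablated cells, 52.5% of them shallow barcodes under the abundance rule. Its ablated cells had the highest class II level among 1-day keratinocyte clusters, at 782 CPM, with Cd207 at 88.7 CPM. In the Serpina12- and Flg2-led granular-like cluster that both libraries filled (195 and 401 cells) the sums were 61.1 and 139.7 CPM. In basal-like cells Cd74 at 43.8 and 67.0 CPM and H2-Ab1 at 30.9 and 49.6 CPM were higher (14.2% of genes). Within the basal-like clusters neither gene reached 1.5-fold. Cd74 was 40.7 and 49.1 CPM in the Igfbp3-led cluster (4835 and 508 cells) and 69.7 and 86.1 CPM in the Sostdc1-led cluster (624 and 430 cells), and the ablated library held relatively more of the latter. Hair follicle-like cells differed little, with class II sums of 164 and 174 CPM, and in sebaceous-like cells Cd74 was lower, at 200.2 and 113 CPM (3.67% of genes). Cd207 moved with class II in the suprabasal-like clusters present in both libraries. In the Mt4- and Krt1-led cluster the class II sum was 77.9 and 134 CPM with Cd207 at 12.6 and 27.3 CPM, in the Serpinb12-led cluster 49.3 and 107 CPM with Cd207 at 7.25 and 14.2 CPM, and in the Cstdc5- and Krt6b-led cluster 64.4 and 248 CPM with Cd207 at 7.58 and 33.2 CPM. The sebaceous-like clusters went opposite ways, from 529 to 238 CPM in the Plin2-led cluster (Cd207 at 20.4 and 15.8 CPM) and from 79.0 to 318 CPM in the Fa2h-led cluster (Cd207 at 5.85 and 64.5 CPM). The part of Langerhans cell RNA or of doublets in these clusters was not tested.

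**Figure D5:**
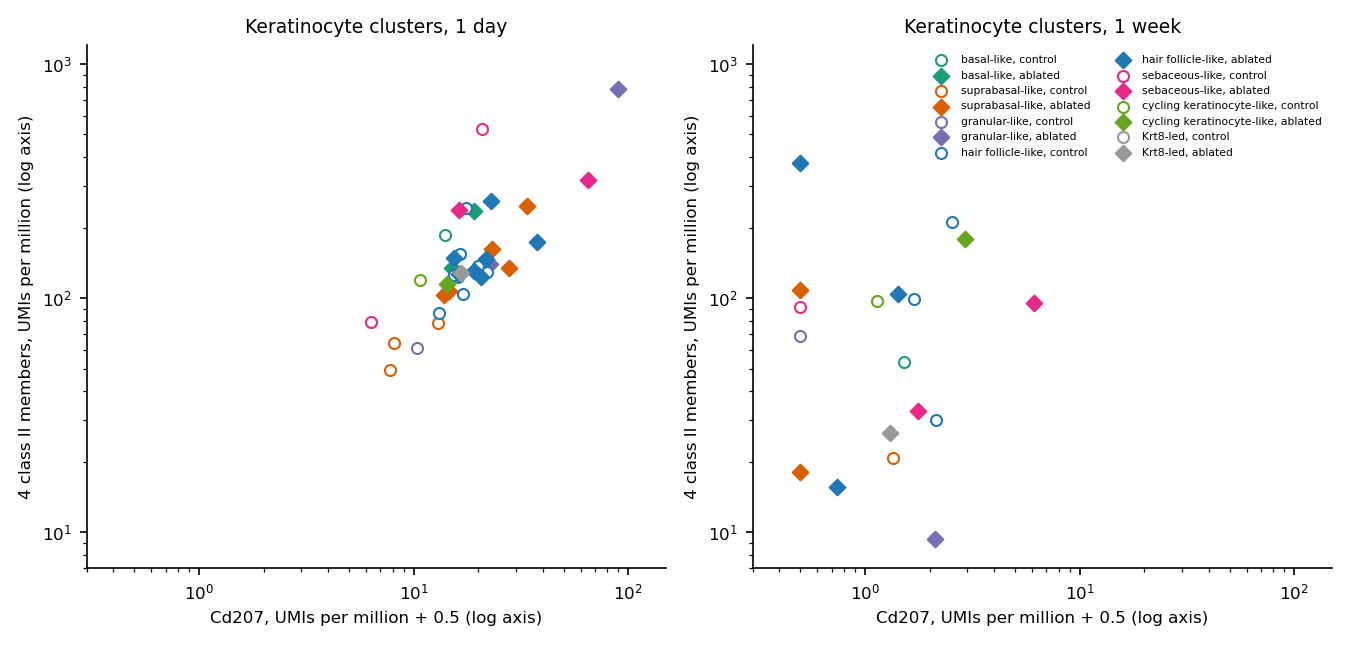
Summed class II level against Cd207 level in each keratinocyte cluster of each library (CPM, log axes, with 0.5 CPM added to Cd207), where each point is 1 cluster in 1 library. At 1 day the cluster with most Cd207, at 88.7 CPM, also has most class II, at 782 CPM, and at 1 week the Fst-led cluster of ablated cells has 377 CPM of class II with no Cd207 UMI.

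At 1 week the class II sum of hair follicle-like cells was 123 and 159.9 CPM (0.38, interval 0.29 to 0.48), and H2-Ab1, at 13.8 and 24.9 CPM (0.85, interval 0.59 to 1.12), was the 1 member counted as higher (6.94% of genes). Here too few cells carried the counts, since 58 of the 1841 ablated cells held 72.3% of the class II UMIs and 33 of the 2331 control cells 54.7%. Without these cells the sums were 57.2 CPM in control and 46.9 CPM in ablated cells. The cells were left out by the count being measured, at a limit that does not allow for depth (median 4362 and 5789 UMIs). The turned direction of the remainder is therefore a description. As a percentage of the level in Langerhans-like cells, Cd207 in hair follicle-like cells was 0.0264% and 0.0123%, the lowest of the 11 Langerhans cell genes, whose median was 0.0998% and 0.162%. The class II members lay between 0.0913% and 0.173% and between 0.122% and 0.253%, on both sides of that median. A cluster led by Fst, Krt35 and Igfbp4 (906 control and 451 ablated cells) had class II sums of 212 CPM (199 to 224) and 377 CPM (358 to 396). Cd207 there was 11 UMIs in the control and 0 UMIs in the ablated library, and Ciita 1 and 6 UMIs. In cells of this cluster thinned to 4000 UMIs, 4.87% (3.24 to 7.01) of control and 10.2% (7.32 to 13.6) of ablated cells had at least 5 class II UMIs. Thinning left out 352 control and 67 ablated cells, unlike shares of the 2 libraries, whose median depths there were 4765.5 and 7419 UMIs. The Lgr5-led hair follicle cluster stood at 30.1 and 15.6 CPM and the Cst6- and Krt79-led cluster at 99.2 and 104 CPM, so the direction was not shared among hair follicle clusters. Cycling keratinocytes at 1 week had all 4 class II members higher, with Cd74 at 59.0 and 105 CPM and H2-Eb1 at 10.8 and 21.8 CPM (16.7% of genes), while 5 of their 6 class I members were lower. In the ablated library 20 of the 360 cells held 901 class II UMIs and the other 340 held 214, beside 150 in 7 control cells and 155 in the other 252. In the cells of fewer than 10 class II UMIs each member was lower in the ablated library, with Cd74 at 30.6 and 23.5 CPM and H2-Eb1 at 4.88 and 2.98 CPM. These cells were likewise chosen by the count being measured, so the values are a description. Suprabasal-like cells had Cd74 at 8.95 and 39.2 CPM and H2-Ab1 at 2.96 and 12.5 CPM, both higher (11% of genes), in clusters that differed between the libraries. Granular-like cells went the other way, with Cd74 at 49.7 and 6.07 CPM.

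Langerhans-like cells carried somewhat less class II transcript in the ablated libraries, by amounts that depended on doublet removal at 1 day. Cd74 was 31629 and 26618 CPM at 1 day (-0.25, interval -0.27 to -0.23), then 44425 and 39561 CPM at 1 week (-0.17, interval -0.19 to -0.14). H2-Aa was 16436 and 14026 CPM, then 15749 and 13481 CPM (-0.23 and -0.22). H2-Ab1 was 20856 and 16711 CPM, then 15104 and 12287 CPM (-0.32 and -0.30), and H2-Eb1 16119 and 13459 CPM, then 15325 and 12262 CPM (-0.26 and -0.32). All 8 ratios were below 0 and none reached 1.5-fold, beside 8.44% and 24.1% of genes that passed in either direction at 1 day and 1 week. With cells chosen by at least 2 Cd207 UMIs and no Cd3 UMI in place of clusters, the summed ratio was -0.59 at 1 day and 0.05 at 1 week. With no barcode removed as a doublet it was -0.037 at 1 day, and H2-Aa alone was 0.01. The class was named from its Langerhans cell markers, so their detection (15 of 15 in each library) is no check on the label. Cd207 stood at 12844 and 10748 CPM at 1 day, then 6425 and 3579 CPM at 1 week. Keratinocyte markers in the class summed to 5205 and 4916 CPM at 1 day, then 19220 and 11119 CPM at 1 week. Markers of macrophages and dermal dendritic cells summed to 1279 and 1175 CPM, with 10 of 12 detected, and to 436 and 1909 CPM, with 8 of 12 detected and Mrc1, Clec9a, Xcr1 and Pf4 at 0. At 1 week this class leaves out a shallow, mostly control cluster led by Cd207, Alox5ap and class II genes, kept among pool-like barcodes. That cluster holds more control barcodes than the class itself. The 1-week levels and the percentages of the Langerhans level given above rest on the class without that cluster.

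The class I members of Langerhans-like cells did not share a direction. H2-K1 was 1384 and 993 CPM at 1 day (-0.48, interval -0.59 to -0.36), then 1391 and 1289 CPM at 1 week (-0.11, interval -0.25 to 0.03). H2-D1 was 949 and 774 CPM, then 1299.5 and 1456 CPM (-0.29 and 0.16), whereas B2m was above 0 at both times, at 1604 and 1892 CPM, then 1604 and 1806 CPM (0.24 and 0.17). At 1 day B2m turned to -0.07 in cells led by hashtag 1 and H2-D1 to 0.08 in those led by hashtag 3. At 1 week cells chosen by their own marker counts gave -0.24 for B2m and -0.20 for H2-D1. Tap2 was the 1 member counted as higher, at 41.7 and 86.1 CPM at 1 week (1.05, interval 0.33 to 1.79; 12.4% of genes), from 115 control and 66 ablated cells. With cells chosen by their own marker counts its ratio was 0.29, below 1.5-fold. Tap1 stood at 94.5 and 96.6 CPM and Tapbp at 109 and 130.0 CPM in the same cells. Genes of the immunoproteasome, which cuts peptides suited to class I, lay in the same direction as Tap2, and 4 of the 4 that could be read were higher. Psmb8 was 154 and 437 CPM (1.51), Psmb9 70.5 and 128 CPM (0.86) and the proteasome activator Psme2 91.3 and 344 CPM (1.91). Of 11 class II processing genes read in these cells, 3 were higher (Ctsd, Lgmn and the thiol reductase Ifi30, at 322 and 966 CPM) and 4 had ratios below 0. The macrophage and dendritic cell marker sum of 436 and 1909 CPM moved with these values, and its part in them was not tested. Ciita itself was 185 and 151 CPM at 1 day, then 88.1 and 93.1 CPM at 1 week, and H2-M2, a class I-like gene abundant in these cells, 3208 and 2594 CPM, then 2039.8 and 2071 CPM.

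In T cell-like cells the class I sum was lower in the ablated library at 1 day, at 5256 and 3659 CPM (-0.52, interval -0.57 to -0.47), and close to control at 1 week, at 7949 and 8661 CPM (0.12, interval 0.05 to 0.20). H2-D1 was 1488 and 777 CPM at 1 day (-0.94, interval -1.04 to -0.83), and was the 1 class I member counted as lower, where 20.2% of genes were. In cells of at least 3000 UMIs its ratio was -0.45 and with no barcode removed as a doublet -0.57, both short of 1.5-fold. It stood at 1459 and 725 CPM in gamma-delta and 1579 and 902 CPM in alpha-beta T cell-like cells. H2-K1 was 1673 and 1218 CPM (-0.46) and B2m 1928 and 1513 CPM (-0.35), while Tap1 was 40.0 and 40.0 CPM. The makeup of the class moved with these values, since the summed T cell markers of the gamma-delta cells were 17639 CPM in control cells and 5088 CPM in ablated ones, with Gzmb and Cd8a at 0 in the latter, and those of the alpha-beta cells 7332 and 3751 CPM. Keratinocyte markers in T cell-like cells summed to 13035 and 28322 CPM at 1 day and to 5498 and 2837 CPM at 1 week, and their part in the class I values was not tested. At 1 week H2-K1 was 2469 and 2805 CPM (0.18), H2-D1 2828 and 3146 CPM (0.15) and B2m 2395 and 2318 CPM (-0.05). Scaling by TMM took the 1-week sum to -0.0087. The gamma-delta cells had H2-K1 at 1897 and 2673 CPM (0.49) and the alpha-beta cells at 3251 and 2988 CPM.

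Class II in T cell-like cells rested on few cells. At 1 day H2-Ab1 at 138 and 90.3 CPM and H2-Eb1 at 115 and 71.3 CPM were lower (20.2% of genes). Langerhans cell markers summed to 3087 and 1024 CPM in the same cells. That sum includes Fcer1g, at 103% and 27.5% of its level in Langerhans-like cells, whereas Cd207 stood at 0.519% and 0.575% of its own. The fall of the sum is thus not read here as less Langerhans cell RNA. At 1 week Cd74 at 205 and 701 CPM and H2-Eb1 at 24.2 and 182 CPM were higher (6.45% of genes), but 1 ablated gamma-delta cell held 225 of the 231 class II UMIs of that subset. Without the cells of 10 or more class II UMIs the sum of T cell-like cells was 238 CPM in control cells and 173 CPM in ablated ones.

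Other genes of the pathway were read in keratinocytes from lists of 74 genes found in the matrices, and their counts stand beside 10.7% of all genes higher and 7.14% lower at 1 day, and 23.3% and 8.54% at 1 week. Of 11 other class I and class I-like genes that could be read at 1 day, H2-M5 was higher and H2-M3 lower. At 1 week Cd1d1, which presents lipids, was higher, at 0.428 and 3.31 CPM (2.95), and H2-M2 and H2-M3 were lower. H2-M3, which presents N-formylated peptides, was lower at both times, at 8.15 and 4.28 CPM (-0.93), then 14.3 and 6.49 CPM (-1.14). H2-M2 was 8.52 and 6.65 CPM at 1 day, then 26.0 and 6.12 CPM at 1 week (-2.09), and H2-T23, the Qa-1 heavy chain, 104 and 96.0 CPM, then 232 and 249 CPM. The class I-like list had a median ratio of -0.24 at 1 day and -0.09 at 1 week. None of 8 peptide loading genes passed in either direction at either time, with medians of -0.02 and 0.29. Of 5 proteasome genes, 1 was lower at 1 day, Psmb8 at 118 and 78.0 CPM (-0.59, interval -0.64 to -0.55; -0.43 in hair follicle-like cells alone), with Psmb9 at 52.1 and 35.8 CPM (-0.54). At 1 week none passed, with Psmb8 at 149 and 139.6 CPM (-0.10) and Psmb9 at 80.4 and 69.4 CPM (-0.21).

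Among class II processing genes in keratinocytes, 1 of 9 was higher at 1 day and 5 of 7 at 1 week, and none was lower. The 5 were the lysosomal proteases Ctsl, Ctsb, Ctsd and Lgmn and the thiol reductase Ifi30, which many cell types express outside antigen presentation. Ctsl was 145 and 204 CPM at 1 day, then 144 and 659 CPM at 1 week (2.19), and Ctsd, the 1 higher at 1 day, 153 and 264 CPM, then 140.1 and 595 CPM (0.79 and 2.09). H2-DMa, by contrast, was 2.57 and 2.86 CPM, then 4.28 and 6.04 CPM. Of 20 regulators read at 1 day, Ciita, Socs1 and Ifngr2 were higher. Ciita, the class II co-activator, was 0.187 and 0.569 CPM from 21 and 42 UMIs (1.60, interval 0.82 to 2.43), and held 4 and 6 UMIs at 1 week. Class II-rich cells held 4 of the control and 14 of the ablated Ciita UMIs at 1 day. Ciita stood at 185 and 151 CPM in Langerhans-like cells, the summed Langerhans cell markers of the same keratinocytes (50.9 and 70.9 CPM) moved with it, and their part in it was not tested. Nlrc5, the class I co-activator, was 36.1 and 28.7 CPM at 1 day (-0.33, interval -0.41 to -0.25), then 51.1 and 27.4 CPM at 1 week (-0.90, interval -1.02 to -0.77). In hair follicle-like cells alone the 1-week ratio of Nlrc5 was -0.37, short of 1.5-fold, and it was higher in the ablated cells of 2 of the 6 shared clusters. Of 18 regulators read at 1 week Nlrc5 and Jak2 were lower and Ifngr2 higher. The interferon-responsive factor Irf1 was 29.7 and 37.1 CPM, then 51.9 and 66.7 CPM. The sign of Irf1 at 1 day turned to -0.31 in cells led by hashtag 2.

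Of the costimulation and checkpoint genes in keratinocytes, 3 of 6 were higher at 1 day (Cd86, Tnfsf9 and Ulbp1), and at 1 week 3 of 5 were higher and 2 lower. Cd86, at 1.15 and 1.96 CPM at 1 day, stood at 1047 and 888 CPM in Langerhans-like cells, and Cd207 in the same keratinocytes moved with it (13.6 and 21.6 CPM). Tnfsf9, the ligand of 4-1BB, a costimulatory receptor of T cells, was 1.08 and 2.52 CPM at 1 day (1.22), then 1.99 and 8.86 CPM at 1 week (2.15). H60c, a stress ligand of the receptor NKG2D, was 12.3 and 14.0 CPM at 1 day, then 24.1 and 12.3 CPM at 1 week, where it was lower (-0.97) together with Cd274 (PD-L1).

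Across cell classes, the genes whose levels ran most like the mean of the class I members were H2-Q7, Psmb9, H2-Q6, Dbf4 and Tnfrsf18, with mean Pearson correlations of 0.805, 0.765, 0.761, 0.696 and 0.673. The correlation was taken on log2(CPM + 1) over 22 points from 11 classes at 1 day and 30 points from 15 classes at 1 week, among 11965 genes, and the 2 values were averaged. For the class II members the closest genes were H2-DMa at 0.941, Alox5ap at 0.939, Cd86 at 0.933, Spi1 at 0.924 and Csf1r at 0.921, with Ciita at 0.868. Nlrc5 stood at 0.255 for class I and at -0.273 for class II. Points of 1 library share its depth and free RNA, so these values are a description.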

How the data were processed

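Single-cell libraries of 4 groups, 1 library each, were analysed from the deposited 10x matrices, whose values are raw UMI counts per gene and barcode, per the file headers. The submitters' processing notes name Cell Ranger 5.0.1, Seurat and mm10; their roles are not given in the sources used here. The matrices held 33552, 32212, 25039 and 18413 barcodes (control and ablated at 1 day, then at 1 week), and the lowest UMI count of a listed barcode was 500, 1368, 500 and 1059.

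Filters kept barcodes of 500 or more UMIs and 300 or more genes whose mitochondrial share was no more than 15%. The barcodes with the highest Scrublet scores were removed as doublets at 0.8% per 1000 barcodes (24.38%, 25.49%, 19.89% and 14.66% of the barcodes that passed), because the automatic threshold marked 17.62%, 0.003139%, 0.01207% and 0.02729%. This left 23047, 23741, 19915 and 15639 cells. The cells of a time point were clustered together (2000 variable genes, 30 components, 15 neighbours, Leiden resolution 1) with scanpy 1.11.5, leidenalg 0.10.2 and Python 3.11.15. Clusters were named from marker lists, with score limits set after the clusters were seen, so class sizes depend on these names. UMIs were summed per class. Intervals were exact Poisson, conditional binomial and Clopper-Pearson ones from scipy 1.17.1, and a count of 0 allows up to 3 counts. TMM factors came from edgeR 4.0.16 in R 4.3.3. The ratio calculation was tested on simulated data.

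All 10 members were eligible in every comparison, though some classes are given as sums or with part of the members. Of the other pathway genes, the 4 highest and the 4 lowest passing ratios in keratinocytes at each time were eligible to be named, with Nlrc5, Ciita, Irf1, Psmb8, Psmb9, H2-T23, H2-DMa and H2-M2 whatever their values, and the 5 genes most like each class. A gene of this rule is not reported here. Immunoproteasome and processing genes of Langerhans-like cells, Cxcl9, the clusters singled out, and Ctsb, Lgmn, Ifi30, Ifngr2, Jak2, Cd86, Ulbp1 and Cd274, which fill small counts of passing genes in keratinocytes, were named after their values were seen. The members, lists and rules were chosen with earlier results of these data known. Alternatives changed the scaling, the filters, doublet removal, clustering, cell classes and call rule.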

Additional observations from a re-analysis of the deposited data

Results flagged for a closer look

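H2-Eb1 in T cell-like cells lay on opposite sides of 0 at the 2 times, with a log2 ratio of ablated over control of -0.69 at 1 day and 2.91 at 1 week, each with an interval on 1 side of 0. The difference between the times was not tested, and the 1-week value comes mainly from 1 ablated gamma-delta cell.

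The antibody features of the 1-day matrices are no gene counts and served here only to divide cells into subsets. They held counts for 3 hashtags. Their median UMIs per barcode were 85, 112 and 109 in the control and 70, 139 and 71 in the ablated library, above the 3 counts taken as the limit, while hashtag 4 had a median of 0.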

How the results depend on the processing

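No paired analysis was possible because each group has 1 library. For the same reason leaving out a replicate was not possible. The summed class I ratio in keratinocytes kept its negative sign under all 15 alternatives at 1 day and all 12 at 1 week, and the class II ratio changed sign under 1 of 16 at 1 day, where the alternative that takes off Langerhans cell RNA gives no information on the sign, and 0 of 12 at 1 week. The class II ratio of Langerhans-like cells kept its sign under all 13 at 1 day and 9 of 10 at 1 week, and the class I ratio of T cell-like cells under all 14 and 9 of 11. The cause of the changes below was not tested. Leaving out class II-rich cells removes them by the count being measured. Values are log2 ratios.

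For class I in keratinocytes at 1 day (-0.19), TMM scaling gave -0.21, totals without mitochondrial and ribosomal protein genes -0.28, median of ratios scaling -0.21, the mean CPM per cell -0.17, cells of at least 3000 UMIs -0.21, hashtags 1, 2 and 3 -0.18, -0.23 and -0.12, hair follicle-like cells -0.17, and Krt8-led cells counted in -0.17. At 1 week (-0.22) the same scalings gave -0.44, -0.28 and -0.44, the mean CPM per cell -0.30, Leiden resolution 2 -0.35, hair follicle-like cells -0.060, Krt8-led cells counted in -0.34, and leaving out cells of 10 or more class II UMIs, added once the data had been seen, -0.24.

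For class II in keratinocytes at 1 day (0.44), totals without mitochondrial and ribosomal protein genes gave 0.35, cells of at least 3000 UMIs 0.36, no doublet removal 0.12, Leiden resolution 2 0.39, hashtags 1, 2 and 3 -0.31, 0.31 and 0.34, hair follicle-like cells 0.086, Krt8-led cells counted in 0.38, leaving out class II-rich cells 0.32, and taking off Langerhans cell RNA 0.70, a ratio of 2 remainders near 0. At 1 week (1.08) TMM and median of ratios scaling both gave 0.87, the mean CPM per cell 0.40, cells of at least 3000 UMIs 1.16, no doublet removal 0.96, Leiden resolution 2 0.43, hair follicle-like cells 0.38, and Krt8-led cells counted in 0.66. Leaving out class II-rich cells gave 0.042, where H2-Aa turned to -0.29 and H2-Eb1 to -0.91. Taking off Langerhans cell RNA at the median rate gave no ratio at 1 week, because less than 0 was left. The 11 genes behind that median ran from 0.017% to 1.28% in the control and from 0.0331% to 2.32% in the ablated library. That spread is too wide for the step to give a direction.

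For class II in Langerhans-like cells at 1 day (-0.26), the 3 scalings gave -0.34, -0.28 and -0.30, cells of at least 3000 UMIs -0.25, no doublet removal -0.037, Leiden resolution 2 -0.25, hashtags 1, 2 and 3 -0.14, -0.37 and -0.17, and cells chosen by their own marker counts -0.59. At 1 week (-0.22) they gave -0.25, -0.28 and -0.33, the mean CPM per cell -0.37, cells of at least 3000 UMIs -0.13, no doublet removal -0.18, and cells chosen by marker counts 0.051. For class I in T cell-like cells at 1 day (-0.52), TMM scaling gave -0.41, cells of at least 3000 UMIs -0.31, no doublet removal -0.29, hashtags 1, 2 and 3 -0.77, -0.32 and -0.43, and cells chosen by marker counts -0.46. At 1 week (0.12) TMM scaling gave -0.0087, median of ratios scaling 0.010, no doublet removal 0.040, and cells chosen by marker counts -0.014.

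A 2-fold rule left 1017 of 2377 genes at 1 day and 2030 of 4054 at 1 week, with 0 and 2 members among those higher. Genes counted as higher made up 60% of the passing genes at 1 day and 48.5% with totals without mitochondrial and ribosomal protein genes, and 73.2% at 1 week and 52.5% with TMM scaling. Depth limits Ciita and Cd207 in 1-week keratinocytes, which rest on at most 51 UMIs.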

Other observations

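Macrophage-like cells of the 1-week libraries were the other class with high class II. They numbered 53 control and 122 ablated cells, with a median of 1373 UMIs and 77.1% shallow barcodes under the abundance rule. Cd74 was 19355 CPM in control cells and 7318 CPM in ablated ones, a log2 ratio of -1.40, H2-Aa 6628 and 3014 CPM, H2-Ab1 5294 and 2463 CPM, and H2-Eb1 5699.9 and 2723 CPM. The class I sum of these cells was 5432 and 4666 CPM. Lyz2, a lysozyme gene of macrophages, was lower in the same cells, at 5794 and 2599.5 CPM, and Cd207 held 0 and 18 UMIs.

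Fibroblast-like cells at 1 week had a class II sum of 126 CPM in control cells and 2216 CPM in ablated ones. Of the 1350 class II UMIs of the ablated cells, 1297 lay in 5 of 187 cells, 3 of which also held a Cd207 UMI. Without the cells of 10 or more class II UMIs the sums were 58.7 and 98.5 CPM. Schwann-like cells at 1 week had class II sums of 158 and 682 CPM from 19 and 84 UMIs.

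The pool-like barcodes carried more class II than any keratinocyte compartment of the same library, at 1065 (control) and 1090.3 CPM (ablated) at 1 day, then 1316 and 1401 CPM at 1 week, with Cd207 at 86.1 and 164 CPM and then 84.1 and 72.4 CPM. At 1 week they include a shallow cluster led by Cd207, Alox5ap and class II genes (830 control and 15 ablated barcodes). Their class I sum at 1 week was 4791 CPM in control cells and 3575 CPM in ablated ones.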
